A study of Mus musculus with 16 samples.

Results

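Genes of the major histocompatibility complex (MHC), called H2 in the mouse, and the genes that load and control their products were compared after irradiation. The comparison was between small intestine of wildtype mice and of mice with Hnf4a targeted in the epithelium. All probes of the deposited table were taken whose symbol begins with H2- or is Tap1, Tap2, Tapbp, Tapbpl, B2m, Ciita, Cd74, Nlrc5, Erap1, Calr or Pdia3. This gave 58 probes for 45 symbols, of 25697 probes for 18138 symbols in all. No symbol Nlrc5, H2-D1 or H2-L was among them, so these genes were not analysed here. Of the 58 probes, 36 for 30 symbols gave a signal above the negative controls (detection p under 0.05) on at least 6 of the 16 arrays and were tested. The other 22 probes, which include every probe of 15 symbols, were not.

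RNA of whole small intestine from 8 wildtype and 8 knockout mice was hybridised to Illumina bead arrays, 1 array per mouse. The knockout mice were VillinCreERT2+ with Hnf4a fl/fl alleles, so that tamoxifen switches on a Cre recombinase driven by the villin promoter, which is active in intestinal epithelium. The wildtype mice lacked the Cre transgene, and the labels give their alleles both as Hnf4a fl/fl and as Hnf4a+/+, without settling which holds. Mice of both genotypes received 1 mg of tamoxifen by gavage on each of 5 days, 14 Gy of whole-body gamma irradiation 3 weeks later, and were killed 96 hours after that. No unirradiated mice were measured, Cre status goes with genotype, and no label used here gives age or strain. The question the design addresses is how irradiated intestine differs when Hnf4a is targeted in its epithelium. HNF4A is a nuclear receptor transcription factor.

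MHC class I molecules stand on nearly all nucleated cells and show peptides cut by the proteasome to CD8 T cells. The peptides are carried into the endoplasmic reticulum by the TAP transporter and loaded with the help of tapasin. Class II molecules stand mainly on dendritic cells, macrophages and B cells, and in the gut also on epithelial cells. They show peptides cut in endosomes to CD4 T cells, after the invariant chain Cd74 has left and H2-DM has exchanged the peptide. Both classes are raised by interferon-gamma, in part through IRF1 and, for class II, through the coactivator Ciita.

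Of the 36 tested probes, 23 for 17 of the 30 symbols were higher in the knockout intestine and 0 were lower, by limma's moderated test with Benjamini-Hochberg adjustment over all 13460 tested probes and a threshold of 0.05. Over all tested probes 12.4% were higher and 17.0% lower. Of the 23, H2-M10.1 reached the test only through its detection on knockout arrays. The median difference was 0.51 on the log2 scale (knockout minus wildtype) over the 36 member probes and -0.04 over all tested probes. For 7 member probes every knockout array lay above every wildtype array, and for 0 every knockout array lay below. Over all tested probes this held for 2.34% and 4.02%. The increases were moderate, and only Tap1 and H2-M2 reached 2-fold in this test. Neither did so under every alternative setting. Higher probes were found for class I chains, for the TAP complex and for class II genes. The 7 probes without overlap were of non-classical class I chains (4) and of class I loading and control (3). For class II chains and for class II loading and control there were 0 such probes. The calls of B2m, H2-Ab1, H2-Eb1 and Cd74 were lost under another normalization, given below.

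**Figure D1:**
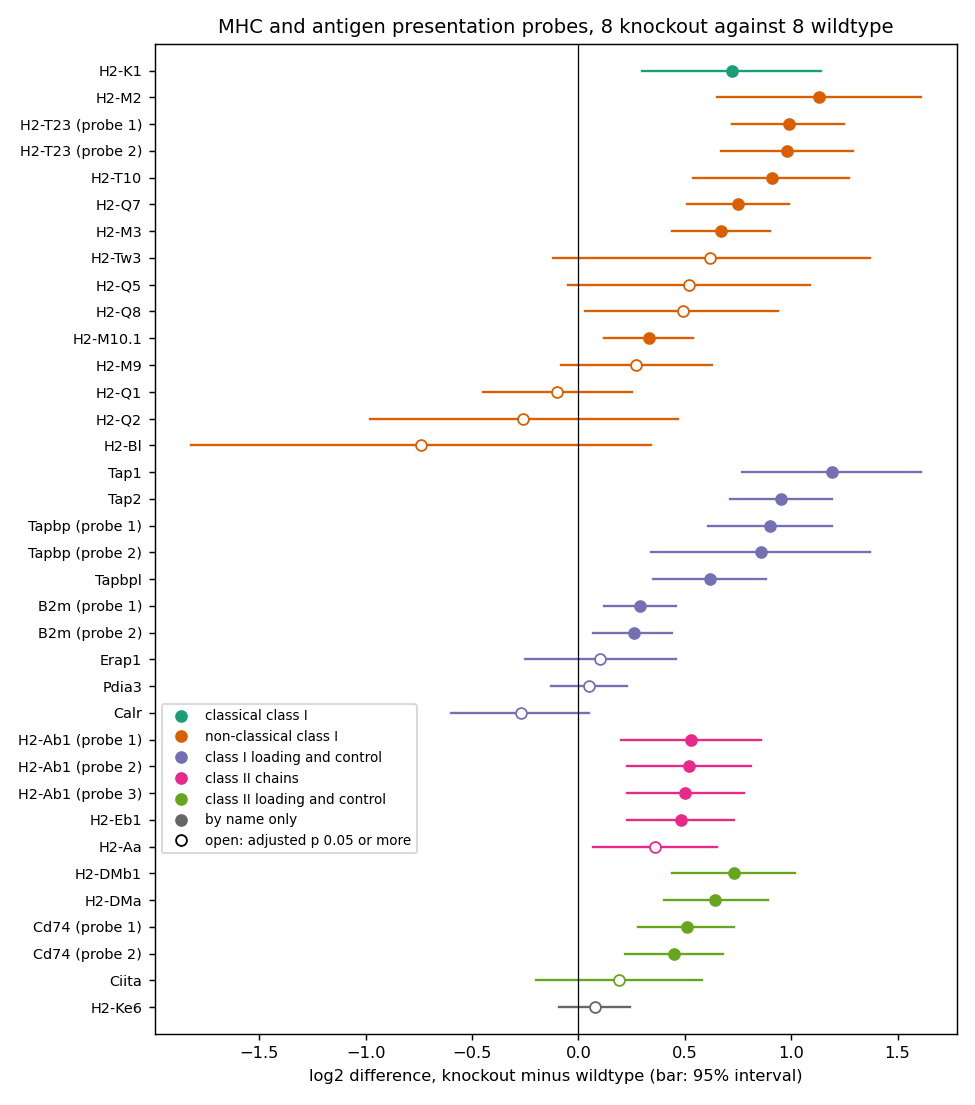
Log2 difference, knockout minus wildtype, of the 36 tested probes of MHC and antigen presentation genes, grouped by class, with 95% confidence intervals from limma (8 wildtype and 8 knockout arrays). Points to the right of 0 are higher in the knockout. The 23 probes past the adjusted p threshold all lie to the right, from B2m at 0.26 to Tap1 at 1.19, and the lowest point is H2-Bl at -0.74.

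The targeted gene was low on all knockout arrays. Normalized Hnf4a log2 intensity lay between 11.91 and 12.50 in wildtype and between 10.17 and 10.71 in knockout, where the mean signal was 29.8% of wildtype (log2 difference -1.75, SE 0.10, limma adjusted p = 1.68e-09). Which cells or transcripts gave the remaining signal was not tested. Each array detected 46.9% to 53.1% of the probes. The arrays lay on 2 slides, each with 4 wildtype and 4 knockout arrays. Epithelial markers such as Vil1 and Krt8 were all detected, and their summed normalized intensity was 57374 to 70226 in wildtype and 56585 to 72654 in knockout. In whole tissue, fewer cells of a type and less RNA per cell cannot be told apart, and this holds for every difference below. Intensities of different probes are not comparable with each other. Apart from the summed intensities of marker lists, each probe is therefore compared only with itself across arrays. These sums are of linear intensity, so bright probes weigh most in them.

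Promoter sequences are shown for 6 members that were higher in the knockout and stand for the chains of class I (H2-K1, H2-T23, H2-Q7), the class I light chain (B2m), peptide transport (Tap1) and class II loading (H2-DMb1). Each is the 250 bases before the RefSeq start of the gene on assembly GRCm38.p6, 5′ to 3′ on the gene's strand. Capitals mark 4 motifs on either strand, namely the interferon-gamma activated site TTCNNNGAA, the interferon-stimulated response element core (GAAA, any 2 bases, GAAA), the shorter pair GAANNGAAA, known for binding interferon regulatory factors, and CCAAT, the box bound by NF-Y. The GAANNGAAA pair was chosen after the promoter letters had been seen. It differs from the response element core by 1 base, and no printed stretch holds both. The 6 include every member promoter found with the response element core, so they do not show the share of members with a motif. The sequences lie at chr2:122147437-122147686 on the plus strand (B2m), chr17:36032702-36032951 on the minus strand (H2-T23), chr17:34000348-34000597 on the minus strand (H2-K1), chr17:35438905-35439154 on the plus strand (H2-Q7), chr17:34187306-34187555 on the plus strand (Tap1) and chr17:34152941-34153190 on the plus strand (H2-DMb1).
B2m: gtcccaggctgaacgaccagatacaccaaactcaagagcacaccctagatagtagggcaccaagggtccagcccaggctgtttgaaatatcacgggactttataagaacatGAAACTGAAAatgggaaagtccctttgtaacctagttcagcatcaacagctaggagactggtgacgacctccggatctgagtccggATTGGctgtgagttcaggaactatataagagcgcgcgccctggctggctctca
H2-T23: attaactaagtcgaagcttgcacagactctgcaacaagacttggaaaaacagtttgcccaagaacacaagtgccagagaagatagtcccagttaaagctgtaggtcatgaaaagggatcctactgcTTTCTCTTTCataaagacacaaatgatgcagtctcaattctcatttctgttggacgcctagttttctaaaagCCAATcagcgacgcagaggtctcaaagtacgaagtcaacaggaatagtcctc
H2-K1: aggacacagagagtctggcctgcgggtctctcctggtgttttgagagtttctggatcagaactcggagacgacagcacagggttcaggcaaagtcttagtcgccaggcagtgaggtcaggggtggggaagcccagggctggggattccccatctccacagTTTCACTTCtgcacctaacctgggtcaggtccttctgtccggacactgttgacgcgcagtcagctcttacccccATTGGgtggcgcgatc
H2-Q7: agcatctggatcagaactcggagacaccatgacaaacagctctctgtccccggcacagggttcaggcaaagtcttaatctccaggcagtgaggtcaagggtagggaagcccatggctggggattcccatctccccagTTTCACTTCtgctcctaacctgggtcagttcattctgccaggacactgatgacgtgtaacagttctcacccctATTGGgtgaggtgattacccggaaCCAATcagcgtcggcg
Tap1: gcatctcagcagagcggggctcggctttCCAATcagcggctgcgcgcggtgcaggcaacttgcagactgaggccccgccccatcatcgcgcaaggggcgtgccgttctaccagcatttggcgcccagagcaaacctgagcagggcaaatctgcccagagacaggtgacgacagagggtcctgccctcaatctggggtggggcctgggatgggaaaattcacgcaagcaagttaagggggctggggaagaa
H2-DMb1: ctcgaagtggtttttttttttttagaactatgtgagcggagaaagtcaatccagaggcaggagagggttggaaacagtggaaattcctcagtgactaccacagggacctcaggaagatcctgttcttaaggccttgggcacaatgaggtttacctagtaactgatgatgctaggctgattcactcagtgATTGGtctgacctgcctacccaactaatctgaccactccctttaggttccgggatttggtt

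A promoter was given for 31 of 44 member genes with a current RefSeq symbol, in 34 promoter entries, since a few genes have several starts. CCAAT was present in 30 of the 34 (88.2%) and in 33.8% of all 32851 promoters of the same length. Within 30 to 100 bases of the start, a window that was not planned, it was present in 25 of 34 (73.5%), against 15.9% of all. The 34 entries include members that were not tested or did not pass. The H2-DMb1 box lay 61 bases before the start and that of B2m 53 bases. The response element core was found in 2 of 34 (5.88%), those of B2m 139 bases and H2-T23 124 bases before the start, and in 2.98% of all promoters. The GAANNGAAA pair was found in 6 of 34 (17.6%), among them H2-K1 and H2-Q7, where it reads TTTCACTTC on the printed strand, against 6.31% of all. The interferon-gamma activated site was in 3 of 34 (8.82%), those of H2-DMb2, H2-M11 and H2-M3, against 7.02% of all. A core of the HNF4 motif, CAAAGTCC, searched as an addition, was in 1 of 34 (2.94%), that of H2-T3, against 1.20% of all. The symbol H2-Tw3 of the array is an older name for H2-T3. Class I genes are related copies and share letters by descent, so they are not separate cases. A match here is only a match of letters, and binding was not measured.

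The class I heavy chains hold the peptide. H2-K1 encodes the classical chain measured here. Its normalized log2 intensity was 7.49 at the lowest, 8.02 at the median and 8.34 at the highest in wildtype, and 7.86, 8.69 and 9.46 in knockout. The groups overlapped, with 6 of 8 knockout arrays above the highest wildtype array. H2-K1 was 1.65-fold higher (log2 difference 0.72, SE 0.19, 95% interval 0.30 to 1.14, limma adjusted p = 0.0102). It came to 1.08 on slide 1 and 0.36 on slide 2, and H2-K1 did not pass on slide 2 alone (log2 difference 0.37, limma adjusted p = 0.280).

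Non-classical class I chains are less variable between strains, and several have ligands or partners of their own. Of 27 probes for them, 14 were tested and 7 were higher. H2-T23 encodes Qa-1, which presents a leader peptide of other class I chains to the CD94/NKG2A receptor of natural killer and T cells. On its brighter probe H2-T23 measured 11.26, 11.49 and 11.76 in wildtype (lowest, median and highest) and 12.03, 12.50 and 12.87 in knockout, so the groups did not overlap. The difference was 0.99 (SE 0.12, 1.98-fold, limma adjusted p = 2.26e-05). Its other probe gave 0.98 (SE 0.15, limma adjusted p = 0.000123), with 7 of 8 knockout arrays above the wildtype range.

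H2-M2 had the largest difference of the tested non-classical probes. It measured 7.73, 9.15 and 9.71 in wildtype and 9.77, 10.24 and 10.63 in knockout, again without overlap. The difference was 1.13 (SE 0.22, 2.19-fold, limma adjusted p = 0.00130), with 1.03 on slide 1 and 1.23 on slide 2. H2-M2 did not pass on slide 2 alone (log2 difference 1.27, limma adjusted p = 0.0730). Its lowest wildtype value, 7.73 on array 5, stood apart from the next, 8.80. Over 28 alternative settings the difference ran from 0.93 to 1.27. H2-T10 belongs to a pair of genes whose products are recognised by gamma-delta T cells. It measured 5.66, 5.92 and 6.63 in wildtype, where it was detected on 6 of 8 arrays, and 6.23, 6.92 and 7.39 in knockout, where all 8 detected it. The difference was 0.91 (SE 0.17, 1.88-fold, limma adjusted p = 0.000826), and 6 of 8 knockout arrays lay above the wildtype range.

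H2-Q7 encodes a Qa-2 antigen. It measured 9.56, 10.03 and 10.11 in wildtype and 10.34, 10.75 and 11.08 in knockout, and the groups did not overlap. The difference was 0.75 (SE 0.11, 1.68-fold, limma adjusted p = 0.000139). H2-M3 encodes a chain that presents N-formylated peptides, which bacteria and mitochondria make. It too did not overlap, with 8.78 to 9.22 in wildtype and 9.34 to 10.04 in knockout (log2 difference 0.67, SE 0.11, limma adjusted p = 0.000259). The last of the 7 was H2-M10.1, whose difference was 0.33 (SE 0.10, limma adjusted p = 0.0172). Only 2 of 8 wildtype arrays detected it, against all 8 knockout arrays. It reached the test only through the knockout arrays, its wildtype level is near background, and the stricter detection filter left it out.

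The other 7 tested non-classical probes did not pass. H2-Q8 (log2 difference 0.49, SE 0.21, limma adjusted p = 0.0912), H2-Q5 (0.52, SE 0.27) and H2-Tw3 (0.62, SE 0.35) had positive differences with large errors. H2-Q8 passed with the slide as a block (limma adjusted p = 0.0109). The 2 slides gave 1.37 and -0.12 for H2-Tw3. H2-M9 gave 0.27 (SE 0.17) and H2-Q1 gave -0.10 (SE 0.16). H2-Q2 gave -0.26 (SE 0.34, 95% interval -0.98 to 0.47), and H2-Bl gave -0.74 (SE 0.50, 95% interval -1.82 to 0.34). The intervals of H2-Q2 and H2-Bl include 0 but do not show that the levels were alike.

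H2-Bl and H2-Q2 varied more within each genotype than between them. H2-Bl ranged from 5.23 to 8.40 over the wildtype arrays and from 5.16 to 8.30 over the knockout arrays. It was detected on 7 wildtype and 4 knockout arrays, so its lowest values are near background. H2-Q2 ranged from 7.66 to 9.32 and from 7.02 to 9.57. Both were above their group's median on wildtype arrays 2, 3, 5 and 6 and on knockout arrays 2, 4, 6 and 8, and both were below it on the other arrays of each group. The probe sequences were not used here, so how far near-identical class I copies share a probe was not tested.

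**Figure D2:**
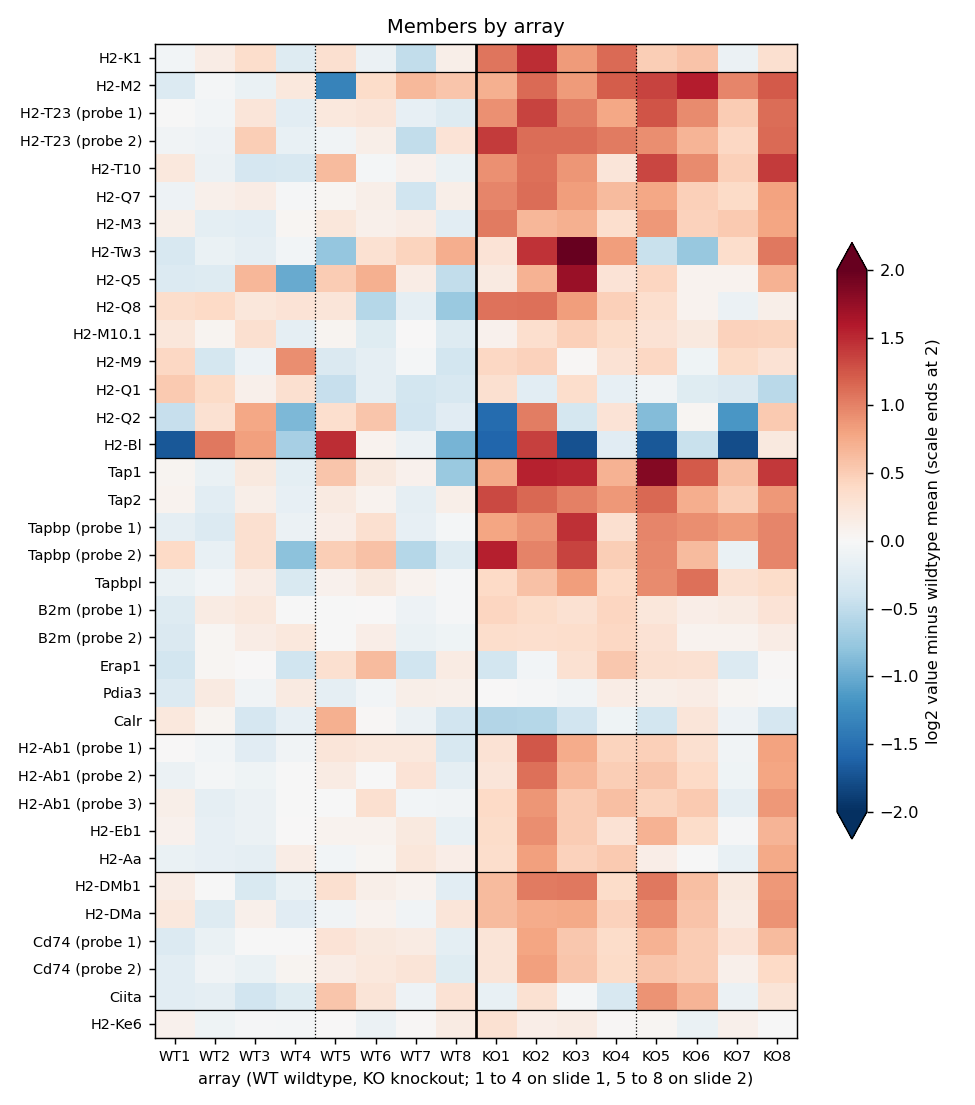
Normalized log2 intensity of each of the 36 tested member probes on each of the 16 arrays, shown as the deviation from the probe's wildtype mean, with probes by class and arrays by genotype. Red is above and blue below the wildtype mean, and the colour scale ends at 2. The knockout columns are mostly red, knockout array 7 is the palest of them, and H2-Bl and H2-Q2 are mixed in both genotypes.

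The genes for peptide transport and tapasin were higher, and those for trimming and for general chaperones did not pass. Of 14 probes for this group, 10 were tested and 7 were higher, for Tap1, Tap2, Tapbp, Tapbpl and B2m. Tap1 and Tap2 are the subunits of the peptide transporter. Tap1 measured 6.62, 7.42 and 7.91 in wildtype and 7.96, 8.68 and 9.20 in knockout, without overlap. Its difference of 1.19 (SE 0.20, 2.29-fold, limma adjusted p = 0.000295) was the highest of the 36 probes, and it was 1.14 on slide 1 and 1.25 on slide 2. Tap2 measured 9.55, 9.84 and 9.94 in wildtype and 10.26, 10.71 and 11.08 in knockout, also without overlap (log2 difference 0.95, SE 0.11, 1.93-fold, limma adjusted p = 1.63e-05).

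Tapbp encodes tapasin, which ties class I chains to the transporter, and Tapbpl encodes a relative, TAPBPR, that edits the bound peptide. Tapbp measured 7.66, 7.86 and 8.26 in wildtype and 8.25, 8.85 and 9.40 in knockout on its first probe. The groups overlapped by 1 knockout array, and the difference was 0.90 (SE 0.14, 1.86-fold, limma adjusted p = 0.000148). The second Tapbp probe gave 0.86 (SE 0.24, limma adjusted p = 0.0133). Tapbpl measured 8.80, 9.12 and 9.30 in wildtype and 9.41, 9.59 and 10.20 in knockout, without overlap (log2 difference 0.62, SE 0.12, 1.53-fold, limma adjusted p = 0.00131). Neither of its other probes was detected on enough arrays to be tested.

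B2m, the light chain shared by all class I molecules, changed less. It measured 13.88, 14.13 and 14.35 in wildtype and 14.27, 14.42 and 14.57 in knockout on the first probe, with 6 of 8 knockout arrays above the wildtype range. The difference was 0.29 (SE 0.08, 1.22-fold, limma adjusted p = 0.0123), and the second probe gave 0.26 (SE 0.09, 1.19-fold, limma adjusted p = 0.0364). These calls depended on the normalization. When arrays were scaled to their 75th percentile in place of quantile normalization, the B2m differences were 0.08 and 0.05 (limma adjusted p = 0.578 and 0.767). The call of the second probe was also lost on leaving out any 1 of 9 arrays, namely wildtype array 1, 5, 7 or 8 or knockout array 1, 2, 3, 4 or 5.

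Erap1, the aminopeptidase that trims peptides in the endoplasmic reticulum, and the general chaperones of this route did not pass. Erap1 gave a difference of 0.10 (SE 0.17, 95% interval -0.25 to 0.46) and was detected on 4 wildtype and 5 knockout arrays. Pdia3, a disulfide isomerase of the loading complex, gave 0.05 (SE 0.08, 95% interval -0.13 to 0.23). Calr, the chaperone calreticulin, gave -0.27 (SE 0.15, 95% interval -0.60 to 0.05, limma adjusted p = 0.187). Its wildtype arrays lay between 9.34 and 10.43 and its knockout arrays between 9.13 and 9.96.

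**Figure D3:**
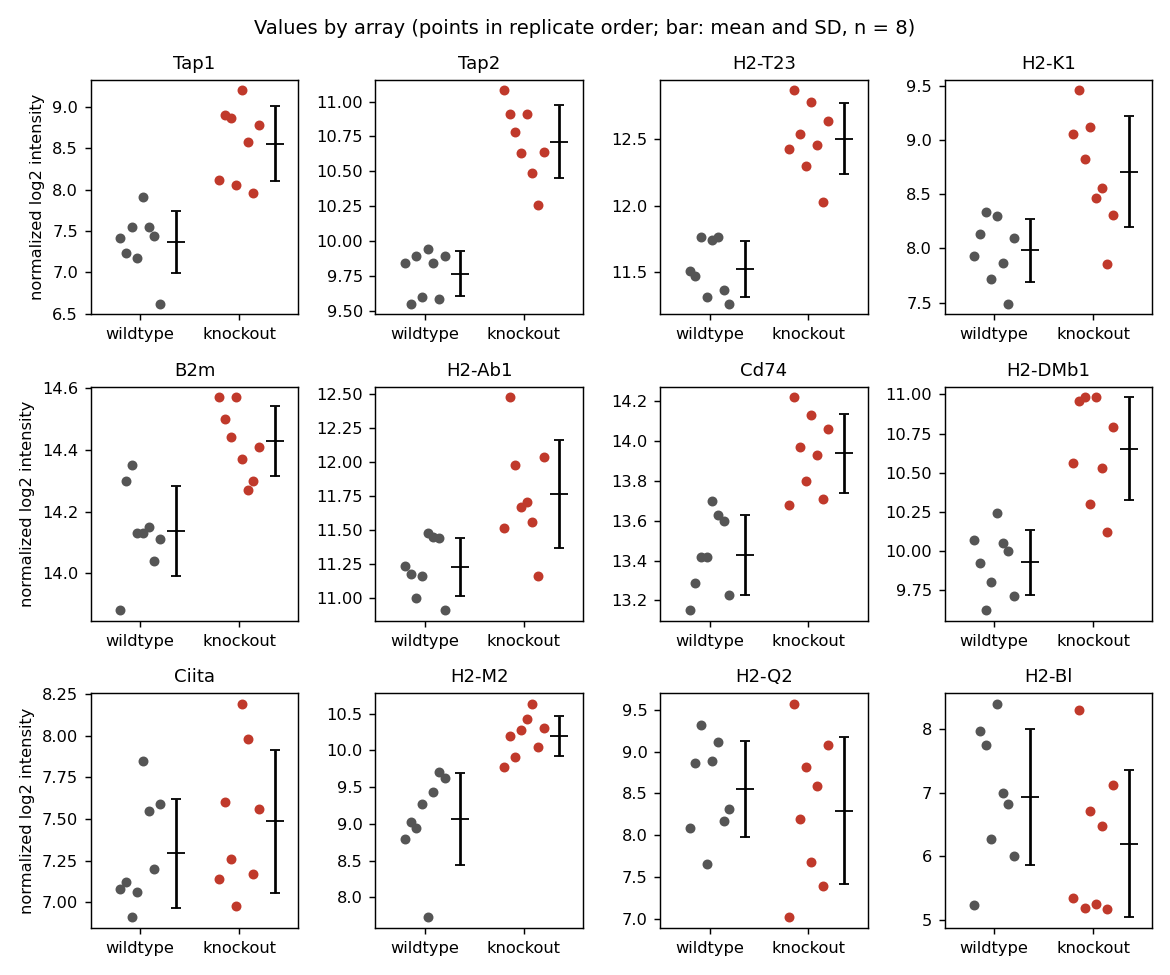
Normalized log2 intensity on each array for selected members, 1 point per array with 8 wildtype and 8 knockout arrays in each panel, with bars for the mean and SD. Tap1, Tap2, H2-T23 and H2-M2 do not overlap between genotypes, while B2m and the class II genes do.

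The groups overlapped for every tested class II chain among the members. Of 6 probes for them, 5 were tested and 4 were higher, 3 of them for H2-Ab1. H2-Ab1 encodes the beta chain of the I-A molecule. On its brightest probe H2-Ab1 measured 12.69, 12.84 and 13.15 in wildtype and 12.78, 13.39 and 13.98 in knockout. The 3 probes gave differences of 0.53 (SE 0.15), 0.52 (SE 0.14) and 0.50 (SE 0.13), with limma adjusted p of 0.0151, 0.00823 and 0.00743. On the brightest probe the difference came to 0.69 on slide 1 and 0.35 on slide 2. H2-Eb1, the beta chain of the I-E molecule, measured 11.73, 11.93 and 12.08 in wildtype and 11.87, 12.33 and 12.82 in knockout, and 7 of 8 knockout arrays lay above the wildtype range (log2 difference 0.48, SE 0.12, limma adjusted p = 0.00537).

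H2-Aa, the alpha partner of H2-Ab1, lay at the threshold. It measured 11.61, 11.77 and 12.01 in wildtype and 11.63, 12.19 and 12.61 in knockout, with 5 of 8 knockout arrays above the wildtype range. The difference was 0.36 (SE 0.13, 95% interval 0.07 to 0.65, limma adjusted p = 0.0502). It passed on leaving out wildtype array 7 or knockout array 5, 6 or 7. Over all 28 alternative settings its adjusted p ran from 0.0173 to 0.753. The alpha chain of I-E, H2-Ea, was not detected on any array. Some laboratory strains do not make it, and the strain is not given.

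Loading and control of class II is shared by H2-DM, H2-O, Cd74 and Ciita. Of 8 probes for these, 5 were tested and 4 were higher. H2-DMa and H2-DMb1 form the exchange factor H2-DM. H2-DMb1 measured 9.62, 9.96 and 10.24 in wildtype and 10.12, 10.68 and 10.98 in knockout (log2 difference 0.73, SE 0.14, 1.65-fold, limma adjusted p = 0.000792). H2-DMa measured 10.68, 10.95 and 11.18 in wildtype and 11.10, 11.64 and 11.87 in knockout (log2 difference 0.64, SE 0.11, 1.56-fold, limma adjusted p = 0.000547). In both, 7 of 8 knockout arrays lay above the wildtype range.

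Cd74 encodes the invariant chain that fills the class II groove on the way to the endosome. It measured 13.15, 13.42 and 13.70 in wildtype and 13.68, 13.95 and 14.22 in knockout on the first probe, again with 7 of 8 knockout arrays above the wildtype range. The difference was 0.51 (SE 0.11, 1.42-fold, limma adjusted p = 0.00175), and 0.45 (SE 0.11, limma adjusted p = 0.00491) on the second probe. The first probe gave 0.60 on slide 1 and 0.42 on slide 2. Ciita measured 6.91, 7.16 and 7.85 in wildtype and 6.98, 7.41 and 8.19 in knockout, and the groups overlapped for most of their range. Its difference of 0.19 (SE 0.18, 95% interval -0.20 to 0.58, limma adjusted p = 0.457) did not pass. H2-Oa, H2-Ob and H2-DMb2, the parts of the modulator H2-O and a second H2-DM beta chain, were each detected on at most 1 array.

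The class II results depended on the normalization as B2m did. Under scaling to the 75th percentile the 3 H2-Ab1 differences were 0.39, 0.35 and 0.33 (limma adjusted p = 0.0645, 0.0733 and 0.0801). H2-Eb1 was then 0.31 (limma adjusted p = 0.0762) and Cd74 0.33 and 0.27 (limma adjusted p = 0.0869 and 0.125). H2-DMa, H2-DMb1, both TAP genes and H2-T23 passed under that scaling too, and 15 of the 23 calls were kept. All differences of the 23 probes stayed positive under it.

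The members H2-Ke6 and H2-D4 were placed in none of the classes above, by their symbols alone. H2-Ke6, known also as Hsd17b8, encodes a hydroxysteroid dehydrogenase and lies in the complex by position. It gave a difference of 0.08 (SE 0.08, 95% interval -0.09 to 0.24). H2-D4 was detected on 1 wildtype and 4 knockout arrays and was not tested. Of the non-classical genes with no tested probe, H2-M1, H2-M10.2, H2-M10.4, H2-M10.6, H2-Q10 and H2-T24 were detected on no array. The probe listed as H2-T3 was detected on no array either, while the one listed under the older name H2-Tw3 was tested. H2-M10.3 was detected on at most 3, and H2-M10.5 and H2-M11 on 1 each. Further probes of H2-M10.1 and Erap1 were detected on no array, and another B2m probe on 4 knockout arrays.

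The members were compared with their neighbours on chromosome 17, since most of the H2 genes lie there in 1 stretch. Between Tapbp and H2-M2, in the order of the RefSeq table, 26 member probes were tested and 18 (69.2%) were higher, with a median difference of 0.63. Of the 117 other tested probes of the same stretch 20 (17.1%) were higher and 23 (19.7%) lower, with a median of 0.02. Over the rest of the chromosome 47 of 524 (8.97%) were higher and 94 (17.9%) lower. Psmb8 and Psmb9, which encode proteasome subunits and lie beside the TAP genes, were among the higher neighbours (log2 differences 1.06 and 0.72). The complement genes C2 (1.29), C4b (0.96) and Cfb (0.79) and the cytokine Tnf (0.96) were others. Wdr46, B3galt4, Vars2 and Nrm, between H2 genes or near them, were lower (log2 differences from -0.93 for Vars2 to -0.42 for a Wdr46 probe). H2-K2, given on the array under an older name and so no member, was higher as well (log2 difference 0.65, limma adjusted p = 0.0115). The class II gene H2-Eb2, likewise listed under another name, did not pass (log2 difference -0.21, limma adjusted p = 0.144).

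**Figure D4:**
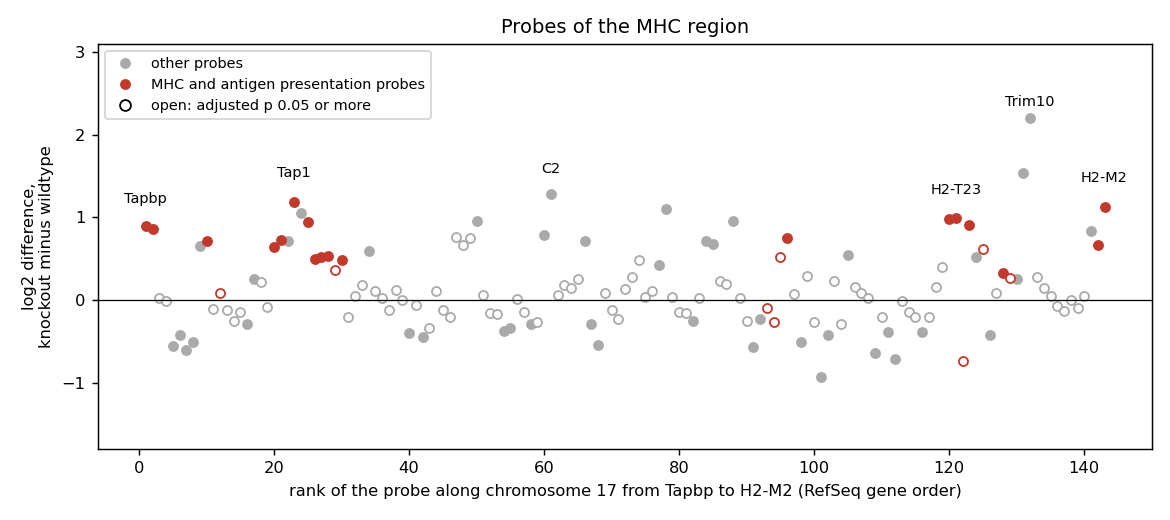
Log2 difference, knockout minus wildtype, of all tested probes between Tapbp and H2-M2 on chromosome 17, drawn in gene order, with member probes and other probes in different colours. Of the 26 member probes 18 are higher by the limma test, and of the 117 others 20 are higher and 23 lower.

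Genes of the same pathways that are not members, and the cell type markers below, were read from the same limma test. Each was read on its brightest tested probe, or on its brightest probe where none was tested. Where a gene had several probes, the others are not given here. The immunoproteasome subunits replace standard proteasome subunits under interferon-gamma and cut peptides that fit class I. Of 5, all tested, 4 were higher. Psmb8 measured 7.23, 7.57 and 8.07 in wildtype and 8.29, 8.77 and 9.09 in knockout, without overlap (log2 difference 1.06, SE 0.15, limma adjusted p = 8.14e-05). Psmb9 (0.72), Psmb10 (0.64) and the activator subunit Psme1 (0.42) were higher as well, and Psme2 gave -0.01. Psme1 did not pass under the 75th percentile scaling (limma adjusted p = 0.112).

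Of 7 tested genes of interferon-gamma signalling, 2 were higher and 0 lower. Ifngr1, a receptor chain, was higher by 0.51 (SE 0.08, limma adjusted p = 0.000298). Irf1, a transcription factor induced by interferon-gamma, was higher by 0.43 (SE 0.09, limma adjusted p = 0.00149), but not under the 75th percentile scaling (limma adjusted p = 0.149). Ifng itself and Socs1 were detected on too few arrays to be tested.

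Endosomal proteases prepare class II peptides and degrade Cd74. Of 8 tested, 3 were higher. Ctsc measured 10.52, 11.23 and 12.21 in wildtype and 12.26, 12.51 and 12.77 in knockout (log2 difference 1.11, SE 0.20, limma adjusted p = 0.000614). Lgmn, asparagine endopeptidase, was higher by 0.68 (SE 0.09, limma adjusted p = 4.01e-05) and Ctss, the main Cd74 protease in mouse antigen-presenting cells, by 0.65 (SE 0.17, limma adjusted p = 0.00851). Of 4 tested genes that bind class II promoters, Rfxank, Rfxap, Nfyb and Nfyc, none was higher, and Nfyc was lower by 0.22 (log2 difference -0.22, SE 0.07, limma adjusted p = 0.0320). That Nfyc call was lost without any 1 of wildtype arrays 5, 6 and 7 or knockout arrays 1, 2 and 5.

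Of 5 tested co-stimulatory or inhibitory ligands and markers, 4 were higher. Cd274 encodes PD-L1, which restrains T cells. It measured 7.55, 8.10 and 8.37 in wildtype and 9.36, 9.57 and 10.53 in knockout, without overlap (log2 difference 1.68, SE 0.16, 3.20-fold, limma adjusted p = 1.15e-06). Cd40 was higher by 0.91 (SE 0.15, limma adjusted p = 0.000329) and Cd86 by 0.60 (SE 0.18, limma adjusted p = 0.0178). Cd83 was higher by 0.44 (limma adjusted p = 0.0472). The Cd83 call was lost on leaving out any 1 of wildtype arrays 2, 4, 5, 6 and 8 or knockout arrays 1, 3, 5, 6, 7 and 8.

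The other lists held few calls. Of 8 tested chaperones and translocon genes of the endoplasmic reticulum, 0 passed in either direction by limma and 1 had an unadjusted p under 0.05. That gene, the disulfide isomerase Pdia6, gave -0.39 (SE 0.15, limma adjusted p = 0.0531), and passed without wildtype array 6 or 7 or knockout array 6. Of 4 tested class I-like genes 1 was higher, Cd1d1, which presents lipids to natural killer T cells (log2 difference 0.88, SE 0.28, limma adjusted p = 0.0263), though not without wildtype array 5. Of 3 tested genes of receptors that recognise class I or class II, 0 passed by limma and 0 had an unadjusted p under 0.05. The lowest p there was that of Klrd1 (CD94, the receptor partner for Qa-1), with -0.51 (SE 0.25, limma adjusted p = 0.135).

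**Figure D5:**
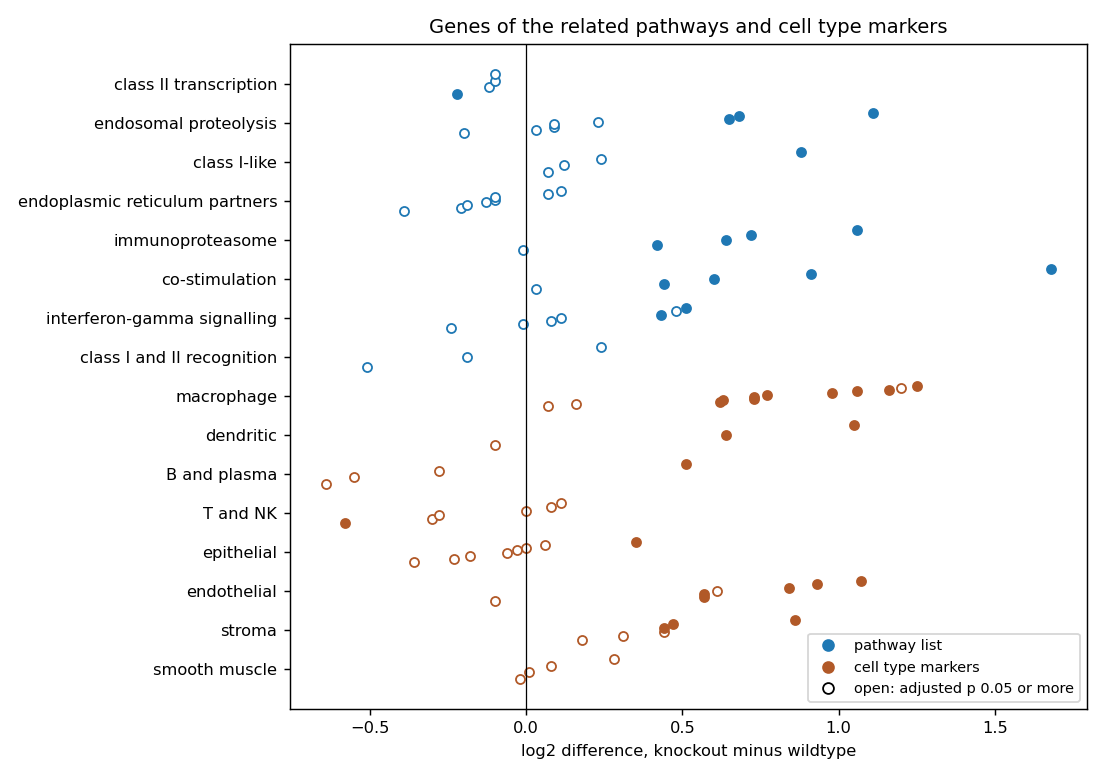
Log2 difference, knockout minus wildtype, of the tested genes of each pathway and cell type marker list, 1 point per gene with filled points past the limma threshold. The adipocyte list, with 2 tested genes, is left out. Most points of the co-stimulation, immunoproteasome and macrophage lists are filled and lie to the right of 0, up to Cd274 at 1.68, and those of the endoplasmic reticulum list are open.

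Most macrophage markers were higher in the knockout group, as most members were. Of 12 macrophage markers, all tested, 9 were higher and 0 lower, and their summed normalized intensity was 10639 to 17657 in wildtype and 17235 to 50921 in knockout. Among the 9, Itgam was detected on 0 wildtype and 6 knockout arrays, so it reached the test only through the knockout group. Of 9 dendritic cell markers 3 were tested and 2 were higher, Itgax and Batf3, with sums of 277 to 491 and 347 to 608. Itgax was detected on 1 wildtype and 8 knockout arrays and Batf3 on 5 and 8, so both needed the knockout arrays to reach the test. The defining dendritic genes Flt3, Xcr1, Cd209a and Ccr7 were detected on no array. Of 7 B and plasma cell markers on the array 4 were tested and 1 was higher, Sdc1, which epithelial cells also express, with sums of 1940 to 4327 and 1140 to 4004. The B cell genes Ms4a1, Blk (on its brightest probe) and Pax5 were detected on no array. Of 6 tested T and NK cell markers 0 were higher and 1, Cd3e, was lower (log2 difference -0.58, limma adjusted p = 0.0184), with sums of 1814 to 2635 and 1624 to 2644. Endothelial markers (5 of 7 tested higher, with Cdh5 detected on 2 wildtype and 7 knockout arrays) and stromal markers (3 of 6 higher) were partly higher too. Of 8 epithelial markers 1, Krt20, was higher. Of 4 smooth muscle markers 0 passed. Of 2 tested adipocyte markers 0 passed, and their sums varied widely, from 85.0 to 12446 in wildtype and from 106 to 32155 in knockout. The leukocyte gene Ptprc was detected on 1 wildtype and 1 knockout array on its brightest probe and was not tested. Bright probes weigh most in the sums, such as Lyz2 for macrophages, Mzb1 for B and plasma cells and Prf1 for T and NK cells. The sums therefore do not measure each list as a whole. The part of the cell makeup in the differences of the members was not tested.

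The knockout arrays did not all lie equally far from wildtype. Averaged over all 36 tested member probes, the deviation from the wildtype mean ran from -0.12 to 0.14 on the wildtype arrays. It was 0.09 on knockout array 7 and between 0.40 and 0.78 on the other 7 knockout arrays. On those 7 arrays 30 to 32 of the 36 probes lay above their wildtype mean, and 22 on array 7. Of all tested probes, 41.2% to 49.5% lay above theirs on the knockout arrays. Array 7 had the lowest knockout value of 20 of the 36. Its Hnf4a log2 intensity was 10.51, within the knockout range, and its macrophage marker sum was 22956. Without it 24 member probes were higher, the 23 and H2-Aa.

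Differences were mostly more positive on the first slide, for 29 of the 36 probes. The share over all tested probes is not given here. Knockout array 7, which lay closest to wildtype, was on slide 2, and its part in this was not tested. The genotype by slide interaction passed for 0 of the 36 and for 0 of all 13460 tested probes by limma, with a lowest adjusted p of 0.994 among the members. On slide 1 alone 16 member probes were higher and on slide 2 alone 8, with 4 arrays a group. Over all 13460 tested probes the order was the other way, with 426 higher on slide 1 alone and 735 on slide 2 alone. On the 2 slides the median of the members was 0.62 and 0.38. Unadjusted p under 0.05 was found for 2 members, H2-K1 (slide 2 minus slide 1 -0.73) and H2-Tw3 (-1.49).

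Within a genotype, pairs of members, or a member and a gene outside the set (Cd79b or Psmb9), were compared over its 8 arrays, with 10 relations computed in all. None passed after Benjamini-Hochberg adjustment of exact two-sided permutation p values. Cd74 and H2-Ab1 gave r = 0.78 in wildtype (exact permutation p = 0.0177, adjusted 0.0782) and rho = 0.86 (exact permutation p = 0.00863). In knockout they gave r = 0.86 (exact permutation p = 0.00506, adjusted 0.0506) and rho = 0.88 (exact permutation p = 0.00724). Without the 2 arrays farthest from the median of Cd74, r was 0.73 and 0.77. H2-K1 and B2m gave r = 0.52 (exact permutation p = 0.184) in wildtype and r = 0.78 (exact permutation p = 0.0235, adjusted 0.0782) in knockout. Cd74 with H2-Aa, Cd74 with the B cell gene Cd79b, and Tap1 with Psmb9 had r between 0.10 and 0.54. The pair H2-D1 with H2-K1 was not analysed here.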

How the data were processed

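Small intestine RNA of 16 mice was labelled as biotin cRNA and measured on Illumina bead arrays. Per the file headers, the deposited intensity of each probe is not normalized. The deposited detection p-value beside it has a step size that fits 798 negative control beads. The deposited series table holds quantile normalized linear intensity with no method named, and served as an alternative. No source used here names the scanner software.

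Background was corrected with limma 3.58.1 in R 4.3.3 (normexp, controls inferred from detection p, offset 16), followed by quantile normalization and log2 of the deposited intensity. The offset shrinks fold changes of dim probes. Probes with a detection p under 0.05 on at least 6 of 16 arrays were kept, 13460 in all. Each probe was tested with lmFit and eBayes on genotype alone, and Benjamini-Hochberg adjustment over all kept probes with a threshold of 0.05. Probes and not genes were tested, since the members are probes. The procedure was tested on simulated intensities. Intervals cover 95%. Motifs were searched in RefSeq promoters of assembly GRCm38.p6.

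Members, pathway lists and markers were chosen with earlier results of these data known. Some genes of the lists are not reported here and are left out of their counts. Genes are named by rule: Hnf4a, every member, up to 4 past-threshold genes with the largest change per list, or the gene with the smallest p where none passed. Other genes in the text, among them neighbours, further list members and markers, were named after their values were seen. The replicates are taken as separate mice, since the design text calls them mice. Arrays correlated at 0.906 to 0.988, and none was counted as a duplicate. The number of arrays limits the precision. Of all probes, 20733 carried a current symbol, 3903 took one from a unique RefSeq synonym and 1061 stayed as in the file. Same-numbered arrays of both genotypes correlated at -0.227 to 0.379 in their deviations, so the numbers were not taken to pair the mice. Alternatives were the normalization, background correction, offset, detection filter, probe rule, slide, array weights and leaving out each array.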

Additional observations from a re-analysis of the deposited data

Results flagged for a closer look

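In 4 cases a measurement stood apart from the other 7 arrays of its group by Dixon's criterion, whose critical value is 0.526 for 8 arrays. With 74 groups tested, chance marks about 1 group in 20. H2-M2 on wildtype array 5 (log2 intensity 7.73, next lowest 8.80, highest 9.71) had a gap of 0.54 of the range. H2-Q7 on wildtype array 7 (9.56, next 9.85, highest 10.11) had 0.54. H2-Q5 on knockout array 3 (8.00, next 6.97, lowest 6.34) had 0.62. One H2-Ab1 probe on knockout array 7 (11.83, next 12.41, highest 12.90) had 0.54.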

How the results depend on the processing

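Of the 23 higher member probes, 7 kept their call in each of the 28 alternatives that tested them and 16 lost it in at least 1; H2-Aa, H2-Q8 and H2-M9 gained a call in at least 1. Leaving out 1 array gave 22 to 24 higher members and medians of 0.44 to 0.59. Scaling to the 75th percentile gave 15, with Pdia3 at -0.13 and H2-Ke6 at -0.04 (reversed). Slide 1 alone gave 16 higher members, 426 higher and 496 lower of all probes and a non-classical median of 0.79. Slide 2 alone gave 8 higher members, 735 higher and 893 lower of all probes, and reversed signs for H2-Tw3 (-0.13), H2-Q1 (0.05), Erap1 (-0.08) and H2-Ke6 (-0.02). With no detection filter the median was 0.25 over all members, 0.02 for non-classical class I and 0.21 for class I loading, since undetected probes then enter. The stricter filter gave 0.62 for class I loading. The correlation of Cd74 with Cd79b in wildtype was -0.12 and that of Tap1 with Psmb9 in knockout -0.13 without the 2 farthest arrays. The causes of the other changes were not tested. With the replicate number as a block 24 members were higher, the 23 and H2-Q8, and 1937 probes were higher and 2507 lower in all, and no member lost its call. Klrd1 passed only there (-0.51, limma adjusted p = 0.0430). Counts of 1 slide rest on 4 arrays a group, and near-background probes such as H2-M10.1 have levels set partly by the background.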
